A study of Taeniopygia guttata with 10 samples.

Results

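IKBKE encodes inhibitor of nuclear factor kappa-B kinase subunit epsilon, and it was followed here as a single gene and as a stretch of chromosome. The gene (ENSTGUG00000001109) lies on chromosome 26 from 1228425 to 1234197 in taeGut3.2.4, a span of 5773 bp. It was 1 of 18618 genes with RNA counts. The methylation data over the gene and 20 kb on each side were taken whole, which gave 30 of 719917 Methylation Peaks and 123 of 1074648 CpGs measured by bisulfite sequencing. Neither selection applied a cut to a measured value, but the gene was chosen with earlier results of these data known. IKBKE is also on lists of genes that the study drew from these same libraries. The direction of its change is therefore not independent evidence.

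In humans, IKBKE is a serine/threonine kinase closely related to TBK1. Both kinases act below receptors and sensors of viral nucleic acid, where scaffold proteins bring them to their substrates. They phosphorylate interferon regulatory factors, which then switch on interferon genes, and IKBKE also feeds into NF-kappa-B signalling. Unlike TBK1, IKBKE is known as an inducible kinase whose level varies widely between cell types, and it is studied as an oncogene in human breast cancer. Methylation of CpGs around the start of a gene is commonly found together with low expression of that gene.

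G266 is a diploid male and ZFTMA a tetraploid female zebra finch (Taeniopygia guttata) line, both grown from tumors that arose spontaneously. Cells received 1 µM AZA (5-aza-2'-deoxycytidine, a cytidine analogue that inhibits DNA methyltransferases) or its solvent DMSO over 72 h in all, and both were renewed every 24 h. The collected cells were split, and one part gave DNA and the other RNA. RNA-seq covered 4 libraries, 1 for each line and treatment, and MethylCap-seq covered the same 4 conditions and untreated ZFTMA. RRBS was made on untreated ZFTMA only. The 2 lines are therefore the replicates of a treatment, and p-values measure the spread between these libraries alone. The variance behind each p-value was estimated with information shared over all genes or all peaks. It is not the spread of a single gene or peak by itself. Each group has 1 culture per line, so the culture and the treatment cannot be told apart within a line. RNA libraries held 22306354 to 35075936 counts, and the counts on Methylation Peaks summed to between 2549052 and 10358829 per library, with both AZA libraries lowest. The labels name no cell type. Of 15 markers of leukocytes, fibroblasts, epithelium and endothelium, 5 could be matched to an identifier, and 4 of them changed with AZA. Of all genes, 27.9% were called higher and 16.3% lower. The markers were matched only through the study's own gene lists, so their count is not independent evidence.

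RNA of IKBKE was higher after AZA in both lines. Normalized counts (counts divided by the sequencing depth that PoissonSeq estimates) stood at 121 (DMSO) and 260 (AZA) in G266. The ZFTMA libraries had 93.8 (DMSO) and 248 (AZA). Both AZA libraries thus stood above both DMSO libraries. The share of all genes with such an order of 2 against 2 libraries was not computed. The means were 107 ± 19.3 with DMSO and 254 ± 8.14 with AZA (SD, n = 2), so the difference was several times the spread between the lines. These values came from 103 and 247 raw counts in G266 and from 125 and 230 in ZFTMA.

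The rise was 2.39-fold, a log2 fold change of 1.26 (SE 0.16, adjusted p = 2.09e-14, edgeR quasi-likelihood test with Benjamini-Hochberg adjustment over all genes). At the FDR of 0.1 used throughout, 27.9% of all genes were called higher and 16.3% lower. Among genes with at least 10 counts in 2 libraries the shares were 34.7% and 22.6%. The median log2 fold change of these 13434 genes was 0.07, and 86.7% of them had a lower value than IKBKE. AZA moved a large share of the transcriptome, and IKBKE lay in its upper range without being among the extremes. In bulk RNA, a rise in every cell and a larger share of cells that express the gene cannot be told apart.

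Within G266 the ratio of AZA to DMSO was 2.15, with a 95% interval of 1.70 to 2.73. Within ZFTMA it was 2.65, with an interval of 2.12 to 3.32. The intervals come from an exact conditional binomial test, cover counting error only, and overlap. Whether the lines differ in their response could not be tested with 1 library per line and treatment.

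At equal treatment the IKBKE RNA levels of the lines lay within counting error of each other. ZFTMA had 0.775 times the level of G266 with DMSO (interval 0.592 to 1.02) and 0.956 times with AZA (0.795 to 1.15). The fitted log2 difference of ZFTMA from G266 was -0.19 (SE 0.16, adjusted p = 0.769, edgeR quasi-likelihood test). In this fit the DMSO and the AZA library of a line stood in as its replicates. By the same test 3.29% of all genes were higher and 2.93% lower in ZFTMA. The order of the 4 levels was therefore both AZA libraries, then both DMSO libraries, and inside each treatment the neighbours G266 and ZFTMA did not differ beyond counting error.

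**Figure D1:**
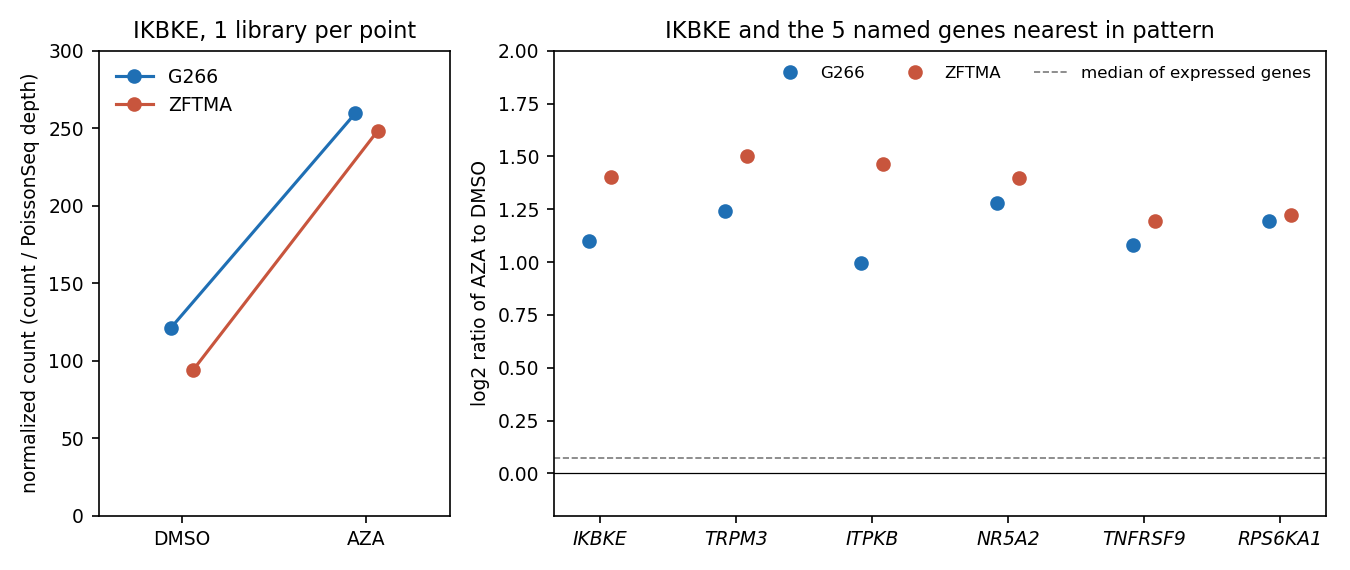
IKBKE RNA by library (left: normalized count against treatment, 1 point per library, lines join the libraries of a cell line) and the log2 ratio of AZA to DMSO in each line for IKBKE and the 5 genes with the most similar pattern (right). IKBKE went from 121 to 260 in G266 and from 93.8 to 248 in ZFTMA, and all genes on the right lie well above the median of expressed genes, 0.07.

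The genes whose pattern over the 4 RNA libraries was most like that of IKBKE were TRPM3, ITPKB, NR5A2, TNFRSF9 and RPS6KA1. Likeness was the Euclidean distance of log2 normalized counts centred on each gene's mean, among 1435 genes with a symbol and a mean of at least 50 normalized counts. The distances ran from 0.124 for TRPM3, a cation channel, to 0.157 for RPS6KA1, a kinase of the MAP kinase pathway. ITPKB, an inositol trisphosphate kinase, lay at 0.125 with 291 and 227 normalized counts with DMSO and 581 and 627 with AZA (G266 first). TNFRSF9, a receptor of the TNF receptor family on activated T cells in mammals, lay at 0.146. The nuclear receptor gene NR5A2 lay at 0.135. Of all 10921 genes at that level, named or not, 15 were as close as RPS6KA1 or closer. Most symbols come from the study's lists of genes that rose after AZA, so these neighbours were drawn from a selected pool.

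Around the start of IKBKE, MethylCap-seq fragments were fewer after AZA in both lines. MethylCap-seq captures methylated DNA with a methyl-binding domain, so the number of fragments on a region in general grows with its methylation. The measure is only semi-quantitative. No AZA-treated sample had RRBS, so how far a loss of fragments stands for a loss of methylation was not tested here. Regions called by the authors from the summed coverage of both DMSO libraries are termed Methylation Peaks. The start is taken here as the end at 1234197, where the study draws the promoter. The strand is not in the tables used here. The promoter window runs from 2000 bp upstream to 500 bp downstream, from 1233697 to 1236197, and 3 peaks touch it.

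The peak at chr26:1233780-1234510, 731 bp wide, spans the annotated start. Its G266 libraries held 49 fragments (DMSO) and 7 (AZA). Its ZFTMA libraries held 74 (DMSO), 9 (AZA) and 97 (untreated). Both AZA libraries were far below every other library. They had more reads outside the peaks but fewer fragments on all peaks together. Those totals were 2549052 (G266) and 2722135 (ZFTMA) with AZA, against 8574525 to 10358829 in the other libraries. Per read outside the peaks the log2 fold change was -3.84 (SE 0.57, adjusted p = 1.23e-09, edgeR quasi-likelihood test over all peaks), with log2 ratios of -3.31 in G266 and -4.32 in ZFTMA. Of all Methylation Peaks, 54.6% were called lower and 0.00167% higher after AZA. Among the 33347 peaks with 100 to 200 fragments in the 4 DMSO and AZA libraries, 99.7% were called lower, so the call itself sets this peak apart from few others. The size of the fall was less common, since 4.26% of those peaks fell further and their median was -3.01. It was not particular to the start. For the flank peaks starting at 1246876, 1248190 and 1217317 the share that fell further was 5.39%, 6.59% and 9.59%. For the one starting at 1216183 it was 74.4%. Leaving out AZA-treated G266 (adjusted p = 0.241) or AZA-treated ZFTMA (0.159) ended the call, in fits without the block for cell line. Over its 10 alternatives the adjusted p ran from 7.04e-12 to 0.651.

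The size of these falls depends on what counts as library size. The study's choice, the reads outside Methylation Peaks, put the median of all peaks with at least 10 fragments at -2.62. With all non-duplicate reads as library size the median was -0.70 and the peak at the start stood at -1.84 (adjusted p = 8.34e-04). With TMM normalization they were -0.24 and -1.43 (adjusted p = 0.473), and with the sum of peak counts 0.03 and -1.12 (adjusted p = 0.651, each from the edgeR quasi-likelihood test). A change of library size moves all peaks by nearly the same amount, so the distance from a median hardly depends on it. In the same order, the peak at the start stood -1.23, -1.14, -1.18 and -1.15 from the median of peaks with at least 10 fragments. Peaks with 100 to 200 fragments, its own range, had a lower median of -3.01 with the study's choice.

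Further upstream, the peak at chr26:1235085-1235294 is thin, with 11 and 3 fragments in G266 (DMSO, AZA) and 8, 2 and 11 in ZFTMA (DMSO, AZA, untreated). Its log2 fold change was -2.71 (SE 0.75, adjusted p = 9.33e-04, edgeR quasi-likelihood test). The peak at chr26:1236167-1236658 reaches into the window with its end only. Its counts were 33 and 1 in G266 and 18, 5 and 21 in ZFTMA, in the same order. The ratio of AZA to DMSO in G266 was 0.0214 (95% interval 5.3e-04 to 0.128). The fitted log2 fold change was -3.88 (SE 0.58, adjusted p = 1.26e-09, edgeR quasi-likelihood test), and without AZA-treated G266 the adjusted p was 0.140. In each of the 3 peaks, both AZA libraries held fewer fragments than every DMSO or untreated library. The totals over all peaks had the same order, and the share of all peaks with such a gap was not computed.

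Summed over the 3 promoter peaks, 8.34% of the DMSO signal per read outside peaks was left after AZA in G266 (95% interval 4.03 to 15.6) and 6.60% in ZFTMA (3.63 to 11.3). Summed over all Methylation Peaks, 17.4% was left in G266 and 13.1% in ZFTMA. In both lines the value of all peaks lies above the promoter's interval, which covers counting error only. That value pools peaks of every depth. Peaks with 100 to 200 fragments, the range of the peak at the start, had a median log2 fold change of -3.01. The promoter sums had log2 ratios of -3.58 in G266 and -3.92 in ZFTMA. Over the whole stretch 14.6% (12.5 to 16.9) was left in G266 and 9.50% (8.26 to 10.9) in ZFTMA.

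RRBS, which counts converted and unconverted cytosines at single CpGs, gave the methylation degree of the promoter in untreated ZFTMA. The window held 13 CpGs, all inside peaks, with a mean degree of 60.4%. They formed a pair of separate clusters. In the peak over the start, 10 CpGs between 153 bp downstream and 184 bp upstream averaged 74.8% ± 27.1 (SD over CpGs, 1 library). Each was read 30 to 137 times.

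Within this cluster the degrees were uneven. The CpG 76 bp downstream of the start was methylated in all 30 reads (100%, 95% Wilson interval 88.6 to 100), and those at 115 bp and 153 bp downstream had 95.5% and 89.8%. The CpG 60 bp upstream had 91.6% of 107 reads. By contrast, the CpG 10 bp upstream had 33.3% of 30 reads (19.2 to 51.2) and that at 156 bp upstream 19.6% of 107 reads (13.2 to 28.1). These CpGs have intervals apart from those of the CpGs next to them: 90.0% (74.4 to 96.5) at 46 bp and 74.8% (65.8 to 82.0) at 184 bp upstream. The intervals cover counting error only, and the sequence of ZFTMA at these CpGs was not examined.

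About 1 kb upstream, 3 CpGs at 1001, 1013 and 1056 bp had degrees of 15.6%, 14.1% and 7.81%, each of 64 reads. Their intervals reach at most 26.4%. They lie inside the thin peak of 8 to 11 fragments in DMSO-treated or untreated cells, so the promoter window holds a highly methylated cluster at the start and a lowly methylated one upstream. Of the 13 promoter CpGs 4 (30.8%) were below 20%, against 3 of the 110 CpGs in the rest of the stretch. The promoter share was near that of all CpGs covered by RRBS (33.0%) and of those on chromosome 26 (26.4%).

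**Figure D2:**
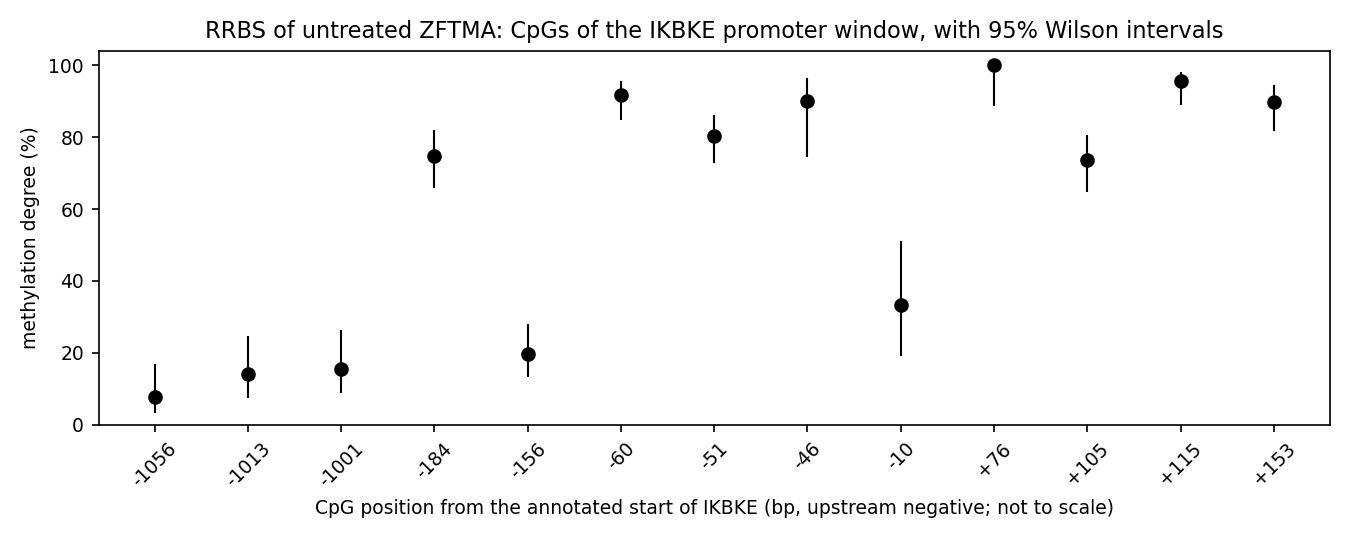
RRBS methylation degree (%) of the 13 CpGs of the promoter window in untreated ZFTMA, ordered by position from the annotated start (bp, upstream negative, not to scale), with 95% Wilson intervals for counting error. The 3 CpGs about 1 kb upstream lie between 7.81% and 15.6%, and 8 of the 10 CpGs around the start lie between 73.5% and 100%.

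In the gene body, 3 of 4 peaks were called lower after AZA, about the share of all peaks with at least 10 fragments (76.9%). The peak at chr26:1232207-1232628 held 24 and 8 fragments in G266 (DMSO, AZA) and 47, 8 and 55 in ZFTMA (DMSO, AZA, untreated), a log2 fold change of -3.03 (SE 0.53). The 6 CpGs inside it averaged 93.0% in RRBS and ranged from 88.2% to 97.6%. At chr26:1231214-1231852 there were 28 and 7 in G266 and 45, 17 and 59 in ZFTMA, a log2 fold change of -2.59 (SE 0.51). At the far end of the gene, the peak at chr26:1228051-1228836 held 14 and 3 in G266 and 14, 5 and 33 in ZFTMA, a log2 fold change of -2.70 (SE 0.60). All 3 had fewer fragments in both AZA libraries than in any other, as did the total over all peaks.

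The fourth, at chr26:1232872-1233060, held 1 to 5 fragments per library and did not pass (adjusted p = 0.105, edgeR quasi-likelihood test). Summed over the gene body, 18.9% (10.7 to 31.7) of the DMSO signal was left in G266 and 11.7% (7.61 to 17.6) in ZFTMA. These intervals hold the values of all peaks. In the upstream flank 15.6% (12.8 to 18.8) was left in G266 and 9.78% (8.15 to 11.7) in ZFTMA, and in the downstream flank 13.4% (9.67 to 18.1) and 8.98% (6.66 to 11.9). In ZFTMA both flanks, like the promoter, lay below the value of all peaks. Outside the peaks, 6 CpGs from 4024 to 4211 bp downstream of the start had a mean degree of 75.4% at 12 to 13 reads each. With these the 12 CpGs of the gene body averaged 84.2%, and with at least 30 reads required, 93.0%.

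Upstream of the promoter window lay the peaks with the most fragments, which are also wide. Per kb of peak, untreated ZFTMA held more at the start (133 fragments) and in the gene body peak at chr26:1232207-1232628 (130) than in any upstream peak with at least 20 fragments (at most 115). Nearest to the window, chr26:1237541-1241192, a peak 3652 bp wide, held 183 and 42 fragments in G266 (DMSO, AZA) and 186, 50 and 211 in ZFTMA (DMSO, AZA, untreated), a log2 fold change of -2.90. Next to it, the peak at chr26:1241584-1244456 held 163 and 51 in G266 and 216, 48 and 256 in ZFTMA, a log2 fold change of -2.81. Its log2 ratios were -2.18 in G266 and -3.45 in ZFTMA, and their intervals for counting error did not overlap. Both broad peaks stood between the median of all peaks with at least 10 fragments, -2.62, and that of peaks with 100 to 200, -3.01. The median of peaks as deep as these was not computed. RRBS in the second gave a mean of 89.0% over 20 CpGs.

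Farther upstream, chr26:1249867-1251739 held 116 and 24 in G266 and 132, 31 and 177 in ZFTMA, for a log2 fold change of -3.07. That at chr26:1248190-1248867 held 55 and 4 in G266 and 54, 12 and 78 in ZFTMA (-3.74). That at chr26:1246876-1247917 held 48 and 4 in G266 and 41, 8 and 54 in ZFTMA (-3.79). In these upstream peaks, as in the total over all peaks, no AZA library reached the level of a DMSO library of either line. The small peak at chr26:1245434-1245841 held 15 and 4 in G266 and 7, 3 and 18 in ZFTMA (-2.40). With 42 CpGs and a mean of 91.0%, the upstream flank was highly methylated in RRBS, and 38 of its CpGs were at 80% or above.

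Downstream of the gene the signal was more scattered. Next to the gene, the peak at chr26:1227441-1227769 held 20 and 3 in G266 and 28, 3 and 25 in ZFTMA, for a log2 fold change of -3.88, and the peak at chr26:1225305-1226207 held 43 and 6 in G266 and 42, 6 and 52 in ZFTMA (-3.69). At chr26:1221651-1222190 there were 19 and 2 in G266 and 11, 5 and 16 in ZFTMA (-2.92). Beyond it, chr26:1220644-1221309 had 38 and 3 in G266 and 17, 2 and 17 in ZFTMA, and its -4.17 was the deepest fitted fall among the 20 peaks with at least 20 fragments.

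Farther out, the peak at chr26:1217317-1219118 held 76 and 10 in G266 and 72, 12 and 72 in ZFTMA (-3.64). At chr26:1216183-1216972 it was 43 and 18 in G266 and 60, 11 and 75 in ZFTMA (-2.70). The lines parted here, as at chr26:1241584-1244456, with log2 ratios of -1.76 in G266 and -3.73 in ZFTMA. At chr26:1208925-1209213 there were 4 and 2 in G266 and 13, 5 and 11 in ZFTMA (-2.27). The shallowest of the 20 was chr26:1211888-1212139, with 8 and 3 in G266 and 7, 8 and 18 in ZFTMA, a log2 fold change of -1.40 (SE 0.68, adjusted p = 0.076, edgeR quasi-likelihood test). This call was lost without the block (adjusted p = 0.128) and in DESeq2 (0.149). There AZA-treated ZFTMA held 1 fragment more than DMSO-treated ZFTMA before scaling. The mean degree of the 56 downstream CpGs was 70.5%, lower than upstream, and 27 of them reached 80%.

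In all, 22 of the 30 peaks were called lower (73.3%) and none (0) higher, against 54.6% lower among all peaks. Of the 23 peaks with at least 10 fragments 22 were called (95.7%), against 76.9% of all such peaks. Since peaks were called on DMSO coverage alone, a region had to hold signal with DMSO to be counted, which favours falls over rises in every such count. The 8 peaks without a call held 4 to 10 fragments over the 4 libraries, and 4 of them were only 2 bp wide. All 20 peaks with at least 20 fragments were called, and in both lines their ratio of AZA to DMSO was below 1. The shares of all peaks of that depth were not computed. Calls were more common at greater depth, reaching 99.7% of all peaks with 100 to 200 fragments. Their log2 fold changes ran from -4.17 to -1.40 with a median of -2.97. The count of 22 fell to 5 without AZA-treated G266 and to 14 without AZA-treated ZFTMA. It was 11 with all non-duplicate reads as library size and 0 with TMM or the sum of peak counts.

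Per read outside peaks, the fall was the larger in ZFTMA at 15 of these 20 peaks. The intervals of the lines overlapped at 18. How many of all peaks had this order of the lines was not computed. The total over all peaks had it, at 17.4% left for G266 against 13.1% for ZFTMA. This order depends on the scale. Reads outside peaks rose with AZA from 832972 to 2019316 for ZFTMA, a larger factor than 1914228 to 2714187 for G266. Raw sums of the 30 peaks fell by the larger factor for G266, 1026 to 212, against 1125 to 259 for ZFTMA. Over the 20 peaks the log2 ratio had a median of -2.75 in G266 and -3.41 in ZFTMA. Neighbouring peaks share their libraries and are not replicates.

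**Figure D3:**
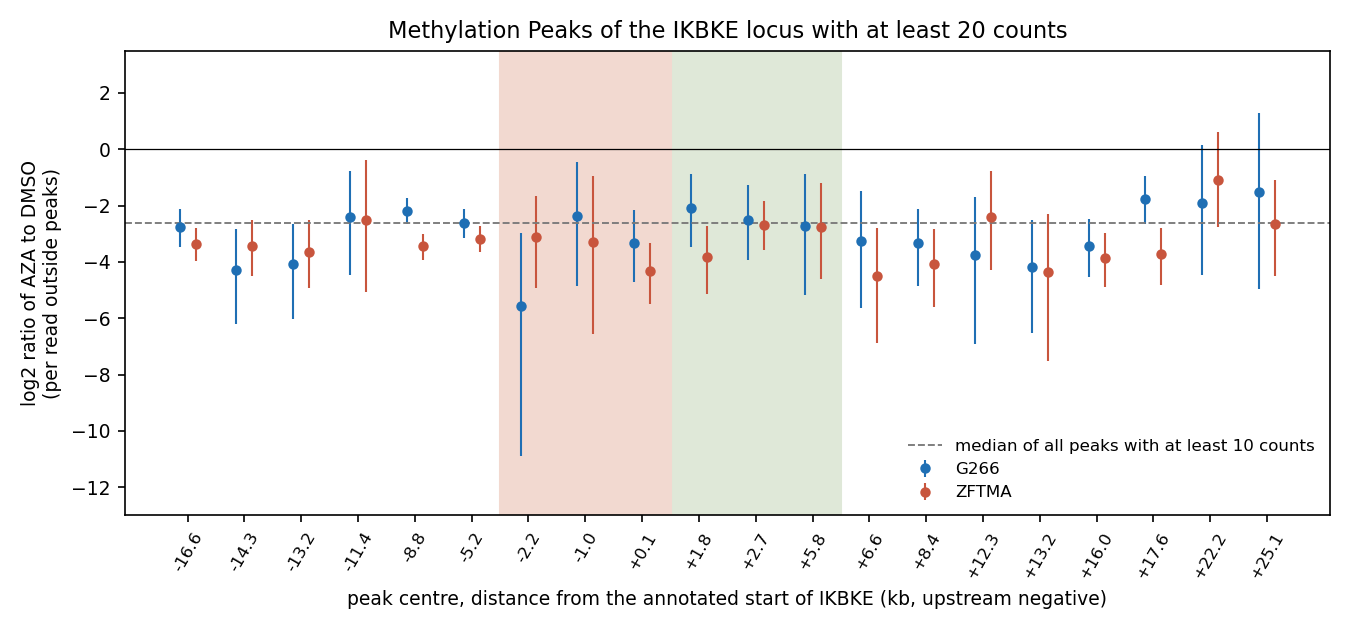
Log2 ratio of AZA to DMSO per read outside peaks at the 20 peaks with at least 20 fragments, ordered by the distance of their centre from the annotated start (kb, upstream negative), with exact 95% intervals for counting error in G266 and ZFTMA. Shading marks the 3 promoter peaks (red) and 3 gene body peaks (green), and the dashed line is the median of all peaks with at least 10 fragments, -2.62. Every point lies below 0.

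Between the lines, 3 peaks were called higher in ZFTMA at equal treatment and none (0) lower. For this comparison the DMSO and the AZA library of a line stood in as its replicates, so no line had replicate cultures. The reads outside peaks that set the scale numbered 1914228 in G266 and 832972 in ZFTMA with DMSO. With AZA they were 2714187 and 2019316. The lowest adjusted p, 0.0361 (edgeR quasi-likelihood test), belonged to the gene body peak at chr26:1231214-1231852, with a log2 difference of 1.81. The neighbouring gene body peak at chr26:1232207-1232628 had 1.62 (adjusted p = 0.070, same edgeR test), and the third was chr26:1208925-1209213 with 2.47 (adjusted p = 0.052, same edgeR test). Of all peaks, 3.68% were called higher in ZFTMA and 0.0163% lower. None of these 3 calls was made with TMM, with the sum of peak counts or without treatment as a block. The peak at the start did not pass (adjusted p = 0.130, same edgeR test).

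Untreated ZFTMA held slightly more signal than DMSO-treated ZFTMA, over the stretch as over all peaks. Per read outside peaks, the ratio of untreated to DMSO was 1.17 (1.08 to 1.27) over all 30 peaks, and over all Methylation Peaks it was 1.13. At 18 of the 20 peaks with at least 20 fragments the interval held 1, and the ratios ran from 0.800 to 2.43. At the start the ratio was 1.24 (0.906 to 1.70). The gene body peak at chr26:1228051-1228836 was one of the 2 exceptions, with 33 fragments untreated against 14 with DMSO, a ratio of 2.23 (1.16 to 4.51). The other was chr26:1249867-1251739 at 1.27 (1.01 to 1.60). This comparison rests on 1 library each.

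The stretch as a whole was more methylated than the average CpG covered by RRBS. Its 123 CpGs had a mean degree of 77.8% and a median of 89.8%, against a mean of 51.3% over all 1074648 CpGs and 56.1% over the 11632 CpGs of chromosome 26. Of the 123 CpGs 80 (65.0%) reached 80% and 7 (5.69%) were below 20%, against 36.6% and 33.0% of all CpGs. Coverage ran from 12 to 329 reads with a median of 87.

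The 83 CpGs inside peaks averaged 82.5% and the 40 outside 68.0%. RRBS covers the cut sites of its enzyme, often CpG-rich, so 18 clusters of CpGs stand for the whole stretch and 12 of the 30 peaks held a CpG. CpGs of a cluster share reads and are not independent. The CpG 10398 bp downstream of the start was methylated in 0 of 123 reads (0%), which allows a degree of up to 2.44% (3 counts of the total). The next CpG, 10393 bp downstream, had 56.1%. The CpG 6568 bp downstream had 0 of 41 reads, which allows up to 7.32%, in a cluster that also held a CpG at 100%. These limits cover counting error only, and the sequence of ZFTMA at these CpGs was not examined.

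**Figure D4:**
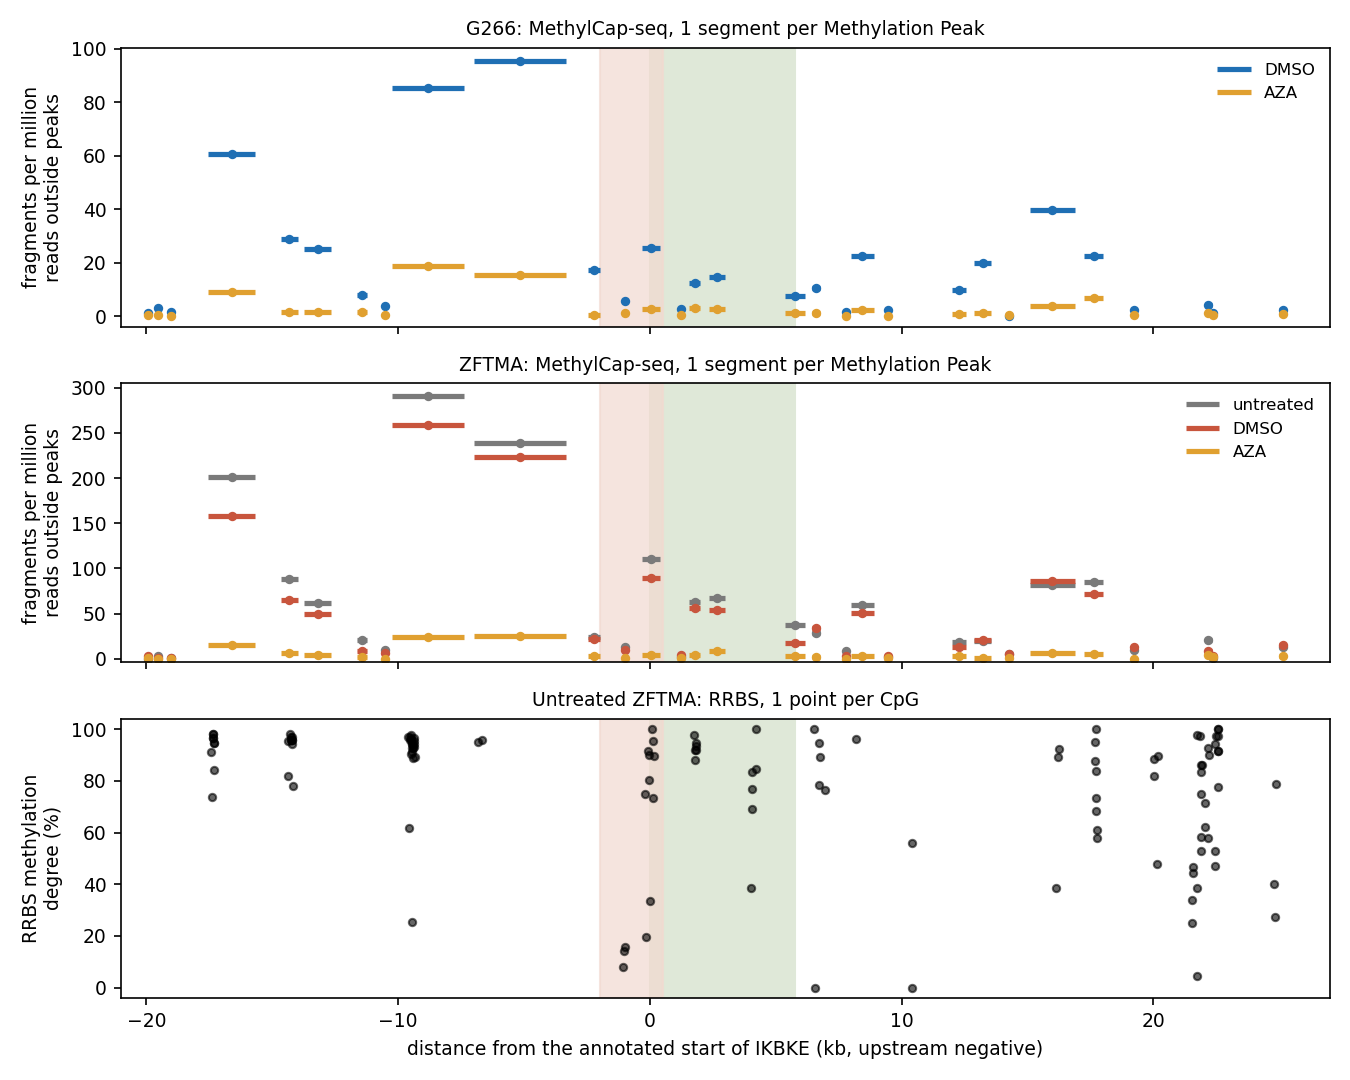
MethylCap-seq fragments scaled to the reads outside peaks for G266 (top) and ZFTMA (middle) and RRBS methylation degree of untreated ZFTMA (bottom), against the distance from the annotated start of IKBKE (kb, upstream negative). Segments span Methylation Peaks, shading marks the promoter window (red) and the gene (green), and the vertical scales of the upper panels differ. In both lines the AZA segments lie low along the whole stretch, and the wide peaks with the most fragments lie 3 to 18 kb upstream.

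The nearest gene with a position in the tables used here was RASSF5, whose product binds Ras-like proteins, 29.7 kb from the downstream end of IKBKE. Its normalized counts were 37.6 and 62.0 in G266 (DMSO, AZA) and 29.3 and 73.4 in ZFTMA. The log2 fold change was 1.05 (SE 0.26, adjusted p = 2.50e-04, edgeR quasi-likelihood test), but DESeq2 gave an adjusted p of 0.217. Next on that side, the cytokine gene IL19, 145 kb away, had 0 or 1 counts per library and no call. PIGR, which carries immunoglobulins across epithelia, lies 154 kb away. It had 0 and 1 raw counts with DMSO and 29 and 15 with AZA (G266 first), and was called higher (adjusted p = 6.26e-08, edgeR quasi-likelihood test). On the other side, GPR61, 206 kb away, had 0 counts with DMSO and 4 and 1 with AZA, and KIF21B, 311 kb away, had a log2 fold change of -0.55. Neither had a call. Genes without a symbol in the tables used here were not placed. Positions came only from the study's own gene lists, so nearer genes can be missing. RASSF5 and PIGR are on the list of genes that rose, so their calls are not independent evidence. Of all genes, 27.9% were called higher and 16.3% lower.

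Of the pathway around IKBKE, 132 symbols were looked up and 25 besides IKBKE could be paired with an identifier. Identifiers were paired with symbols only through the study's own gene lists, most of them lists of genes that changed in these libraries, so the counts are not independent evidence. Of the 25 genes 16 were called higher, 1 lower and 8 neither, with a median log2 fold change of 0.80 where genes without counts in DMSO stand at a bound (3 counts per library, or no change where AZA was no higher). Among genes with at least 10 counts in 2 libraries, 34.7% were higher and 22.6% lower (27.9% and 16.3% of all genes). Of the 16 named through the list of genes that rose, 14 were higher. Of the 9 named through the list of promoters alone, 2 were higher, 1 lower and 6 neither, near the shares of all genes, with a median of 0.07, the same as that of all expressed genes.

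Among kinases and scaffolds only OPTN could be matched besides IKBKE. OPTN, an adaptor that binds TBK1 in humans, had 5375 and 6222 normalized counts in G266 and 6547 and 6200 in ZFTMA (DMSO, AZA), with no call. TBK1 itself was not analysed here. Among the sensors, DHX58, an RNA sensor of the RIG-I family, rose from 43.5 to 145 in G266 and from 28.5 to 79.9 in ZFTMA (log2 fold change 1.62, SE 0.23). TLR5, the flagellin receptor, fell from 56.4 to 41.0 in G266 and from 57.0 to 36.7 in ZFTMA (-0.55, adjusted p = 0.082, edgeR quasi-likelihood test), a call lost with total counts as library size, without the block and in DESeq2. TLR4 had 0 counts with DMSO in both lines, and 2 and 3 with AZA, which was at or under the floor of 3 counts.

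Of 4 transcription factors 3 were higher, against 27.9% of all genes, and all 3 were named through the list of genes that rose. IRF1, an interferon-inducible activator, had 1389 and 2805 normalized counts in G266 and 1337 and 2055 in ZFTMA, for a log2 fold change of 0.82. IRF8, a factor of the myeloid lineage in mammals, had 112 and 253 raw counts in G266 and 177 and 331 in ZFTMA (1.24). NFKB1, a subunit of NF-kappa-B, rose by 0.77 on the log2 scale. STAT3, which transmits cytokine signals, had 0.03 and no call.

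All 4 inhibitors matched were higher, against 27.9% of all genes, and 3 of them (TNIP1, TNIP3 and DUSP1) were named through the list of genes that rose. TNIP3, one of the proteins that bind the NF-kappa-B inhibitor TNFAIP3, went from 12.9 to 128 normalized counts in G266 and from 29.3 to 101 in ZFTMA, a log2 fold change of 2.34. TNIP1, of the same group, had 0.88 and the phosphatase gene DUSP1 0.80. TNFAIP3 itself had 0.43, and this call was lost in DESeq2 (adjusted p = 0.330).

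Of the interferons, cytokines and receptors, 4 of 7 were called higher, against 27.9% of all genes. Among those called, IL15, TNFSF15 and IL6 were named through the list of genes that rose. IL15, a cytokine of lymphocytes, had 0 counts in both DMSO libraries and 64 and 110 with AZA, a call lost in DESeq2 (adjusted p = 0.101). TNFSF15, a cytokine of the TNF family, had 11.8 and 46.3 normalized counts in G266 and 6.75 and 50.7 in ZFTMA (2.45). IL6 had a log2 fold change of 0.77 and the kinase gene JAK1 0.36. IFNGR2 (0.01), IFNLR1 (1.48) and CCL5 (1.53) had no call, the last 2 at 2 to 9 raw counts per library.

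Of the interferon-stimulated genes, 4 of 6 were called higher, against 27.9% of all genes, and all 4 are on the list of genes that rose. ZNFX1, an RNA helicase, went from 953 to 2879 in G266 and from 659 to 1832 in ZFTMA (1.54). PARP9 (1.17) and DTX3L (1.30), which form a complex in humans, have overlapping spans on chromosome 7, so part of their counts could come from shared reads. ADAR, an editor of double-stranded RNA, had 0.68. HERC3 (-0.17) and SAMHD1 (0.10) had no call. Cell type markers, matched only through the study's own gene lists, were examined in the same libraries. CSF1R, a receptor of macrophages, rose from 108 to 309 in G266 and from 93.0 to 309 in ZFTMA, and EPCAM, of epithelia, by 4.81 on the log2 scale. The fibroblast markers went opposite ways, since DCN rose by 0.63 while COL1A2 had a log2 fold change of -1.07. KDR of endothelium, at 1 to 8 counts per library, had no call. Their part in the results above was not tested.

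**Figure D5:**
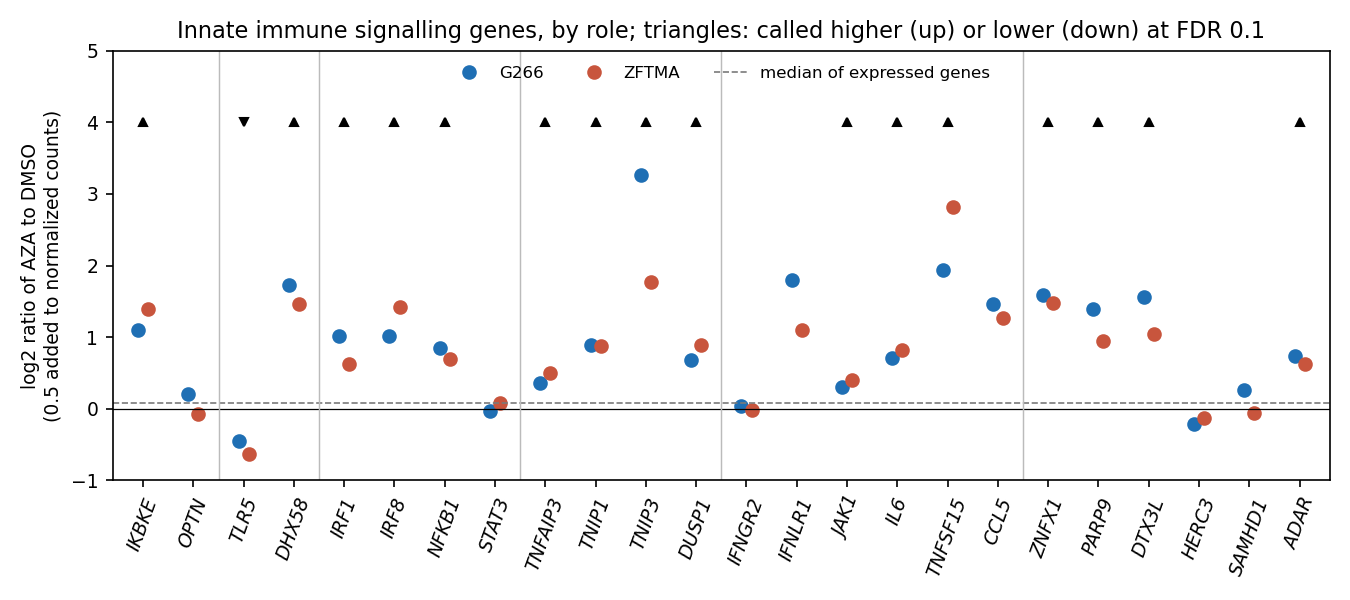
Log2 ratio of AZA to DMSO in G266 and ZFTMA (0.5 added to normalized counts) for IKBKE and 23 other genes of innate immune signalling, grouped by role, with triangles for calls at FDR 0.1. IL15 and TLR4, without counts in DMSO, are left out. IKBKE is the first gene, above 1 in both lines, and the dashed line is the median of expressed genes, 0.07.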

How the data were processed

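The authors deposited raw counts of fragments per Methylation Peak (Bowtie2 2.1.0 on taeGut3.2.4, duplicates removed, peaks called on pooled DMSO coverage) and raw counts per gene (STAR 2.3.0 and Rsubread, Ensembl release 72, duplicates kept, use of strand not given in the sources used here). The RRBS values the authors deposited are, per CpG with at least 10 reads, the covering reads (counts) and the methylated percent (Bismark 0.9.0).

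Tests over all genes or all peaks used the quasi-likelihood functions of edgeR 4.0.16 (R 4.3.3, cell line as a block as in the paired design of the study, Benjamini-Hochberg FDR of 0.1). DESeq2 1.42.0 was an alternative. SE was derived from the test (absolute log2 fold change over the root of F). RNA was scaled by PoissonSeq depths from an own implementation. MethylCap-seq was scaled by the non-duplicate reads that the study tabulates, less the counts on peaks, both taken as read pairs. Libraries of a line deviated together from their group means (correlation 0.248 over 13434 genes and 0.137 over 494249 peaks). Exact binomial and Wilson intervals came from scipy 1.17.1 in Python 3.11.15. Tests were checked on simulated data in which far fewer features changed than were called here. That check does not give their error rates on these libraries.

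The gene was chosen, and the lists made, with earlier results of these data known. Values are given for IKBKE, for every peak with at least 20 fragments or in the promoter window, for all matched genes of the list, for the nearest genes with a position, and for the 5 most similar genes. Symbols came from the supplementary tables (2187 genes). The symbol table of assembly bTaeGut7.mat shared 0 identifiers with the files. 1 gene of the list is not reported here. Sequences were not used here.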

Additional observations from a re-analysis of the deposited data

Results flagged for a closer look

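In 4 genes of innate immune signalling the log2 ratio of AZA to DMSO had opposite signs in the lines, and the difference between the lines was not tested. The share of all genes with opposite signs was not computed. The ratio of OPTN was 0.21 in G266 and -0.078 in ZFTMA. It was -0.024 and 0.077 for STAT3, 0.038 and -0.023 for IFNGR2, and 0.26 and -0.060 for SAMHD1 in the same order. None of the 4 was called changed by AZA, and their fitted sign turned with TMM.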

How the results depend on the processing

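The rise of IKBKE RNA kept its direction and its call under every alternative run, with adjusted p from 2.96e-16 to 0.0283 and log2 fold changes from 1.07 to 1.44, which is also the range over fits that leave out one library. The median of genes with at least 10 counts in 2 libraries shifted from 0.07 to -0.03 with TMM and 0.16 with total counts. IKBKE stood 1.18 above it in each, a distance that a change of scaling hardly alters. Without the replicate block its adjusted p was 2.76e-03 (edgeR quasi-likelihood test), the list of 25 genes and IKBKE held 0 lower genes in place of 1, 6 peaks in place of 12 were higher among all peaks, and 0 of the 3 peaks of the locus were called between the lines. The lower genes of that list numbered 2 with TMM and with low counts filtered, and 0 with total counts and in DESeq2. DESeq2 called 2361 genes higher in place of 5186 and 3 peaks higher.

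Of the 22 peaks of the locus called lower, TMM left 0, all non-duplicate reads 11 and the sum of peak counts 0. Fits that leave out one library gave 5 to 23, with 5 without AZA-treated G266 and 14 without AZA-treated ZFTMA. Of all peaks 392812 were lower, against 148, 53025 and 120 in the same order, and 359, 735 and 988 were higher. Line differences at the locus numbered 0 with TMM and with the sum of peak counts and 6 with low counts filtered. The mean RRBS degree of 77.8% became 80.8% over the 43 CpGs with at least 100 reads and 79.97% with CpGs weighted by reads.

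Log2 fold changes turned positive with the sum of peak counts at the peaks starting at 1208925 (0.50), 1211888 (1.31), 1216183 (0.016), 1228051 (0.0089), 1231214 (0.17) and 1245434 (0.24), with TMM at 1208925 (0.13) and 1211888 (1.00), and with all non-duplicate reads at 1211888 (0.59). They turned negative with TMM for OPTN (-0.036), STAT3 (-0.075), IFNGR2 (-0.10) and SAMHD1 (-1.9e-05), and in DESeq2 for OPTN (-0.026), STAT3 (-0.065) and IFNGR2 (-0.085). The cause was not tested. Peaks with few fragments limit what could be called.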
